A study of Bos taurus with 9 samples.

Results

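Creatine kinases and the enzymes around them that make creatine and recycle adenine nucleotides were followed in 3 tissues of cattle. The set was 9 listed genes, whose probe sets were found by symbol: CKM, CKMT2, CKB, GATM, GAMT, AMPD1, AMPD3, AK1 and ADSS1. Every probe set annotated with exactly 1 of these symbols was taken and treated separately. That gave 11 probe sets for 7 genes, among 24016 probe sets and 9155 named genes on the array. No probe set carried the symbol AMPD1 or AMPD3, and both genes were not analysed here. CKM and CKMT2 had 2 probe sets each, ADSS1 had 3, and the other 4 genes had 1.

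The samples were abdominal adipose tissue, subcutaneous adipose tissue and longissimus dorsi muscle, the long back muscle, with 3 arrays for each. They came from male Yan yellow cattle at an age of 24 months. The labels give all animals the same breed and sex and the same rearing, and name no treatment. The labels count 9 bulls and do not tie samples to animals, and a p-value here measures only how far these samples spread, which may be technical. Each tissue was measured whole, so fewer cells of a type and less messenger RNA per cell cannot be told apart in any difference below.

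Creatine kinases pass a phosphate group back and forth between ATP and creatine, which lets a cell hold a quick reserve of energy as phosphocreatine. CKM is the cytosolic form of skeletal muscle, CKMT2 the mitochondrial form of striated muscle, and CKB the cytosolic form of brain and many other tissues. GATM makes guanidinoacetate from arginine and glycine, and GAMT methylates it to creatine. AK1, the cytosolic adenylate kinase, turns ADP into ATP and AMP. ADSS1 is the muscle form of adenylosuccinate synthetase, which starts the return of IMP to AMP in the purine nucleotide cycle, the cycle whose AMP deaminases are encoded by the AMPD genes. In mice, CKB and GATM have been studied in a creatine cycle of heat-producing adipocytes.

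Values are log2 of the deposited intensities, so a difference of 1 is a 2-fold change, and a group mean under 6 is called near background. Medians of the 24016 probe sets were 5.89 on each abdominal array, 5.87 to 5.92 on subcutaneous arrays and 5.75 to 5.79 on muscle arrays. The GAPDH control probe sets had 3′ to 5′ intensity ratios, which rise when RNA is shortened, of 1.26 to 1.62 in abdominal fat, 1.21 to 1.74 in subcutaneous fat, against 0.937 to 1.01 in muscle. The same ratios for actin were 2.24 to 5.69 in abdominal fat, 3.86 to 8.17 in subcutaneous fat and 0.963 to 1.04 in muscle. The part of RNA shortening in the differences between fat and muscle was not tested. The tissue labels were checked against marker genes. The 7 measured of 8 adipocyte markers were all higher in fat, with summed intensities of 35365 to 37915 in abdominal fat, 33823 to 34975 in subcutaneous fat, against 3170 to 7163 in muscle. The 7 measured of 10 muscle fibre markers were all lower in fat, with sums of 300 to 1575 in abdominal fat, 708 to 839 in subcutaneous fat, against 53803 to 66133 in muscle. Other cell types also differed: 5 of 6 endothelial, 6 of 7 smooth muscle and pericyte, 6 of 6 macrophage and 4 of 5 fibroblast markers were higher in fat. Of 4 mesothelial markers 1 was higher and 1 lower, and none of 3 nerve markers passed the test.

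All 11 probe sets differed between adipose tissue (the mean of both depots) and muscle at an adjusted p under 0.05 in limma's moderated test. Lower in fat were 8 probe sets of 5 genes: the first CKM probe set, both CKMT2 probe sets, GAMT, AK1 and all 3 ADSS1 probe sets. Higher in fat were 3 probe sets: the second CKM probe set, CKB and GATM. Over the whole array 26.4% of probe sets were lower and 26.2% higher, so the share of members that were higher was near that of the array. The median difference was −2.59 for the 11 probe sets and −0.06 for all probe sets. For all 11, the 6 fat arrays lay on 1 side of the 3 muscle arrays, which was so for 44.8% of probe sets.

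**Figure D1:**
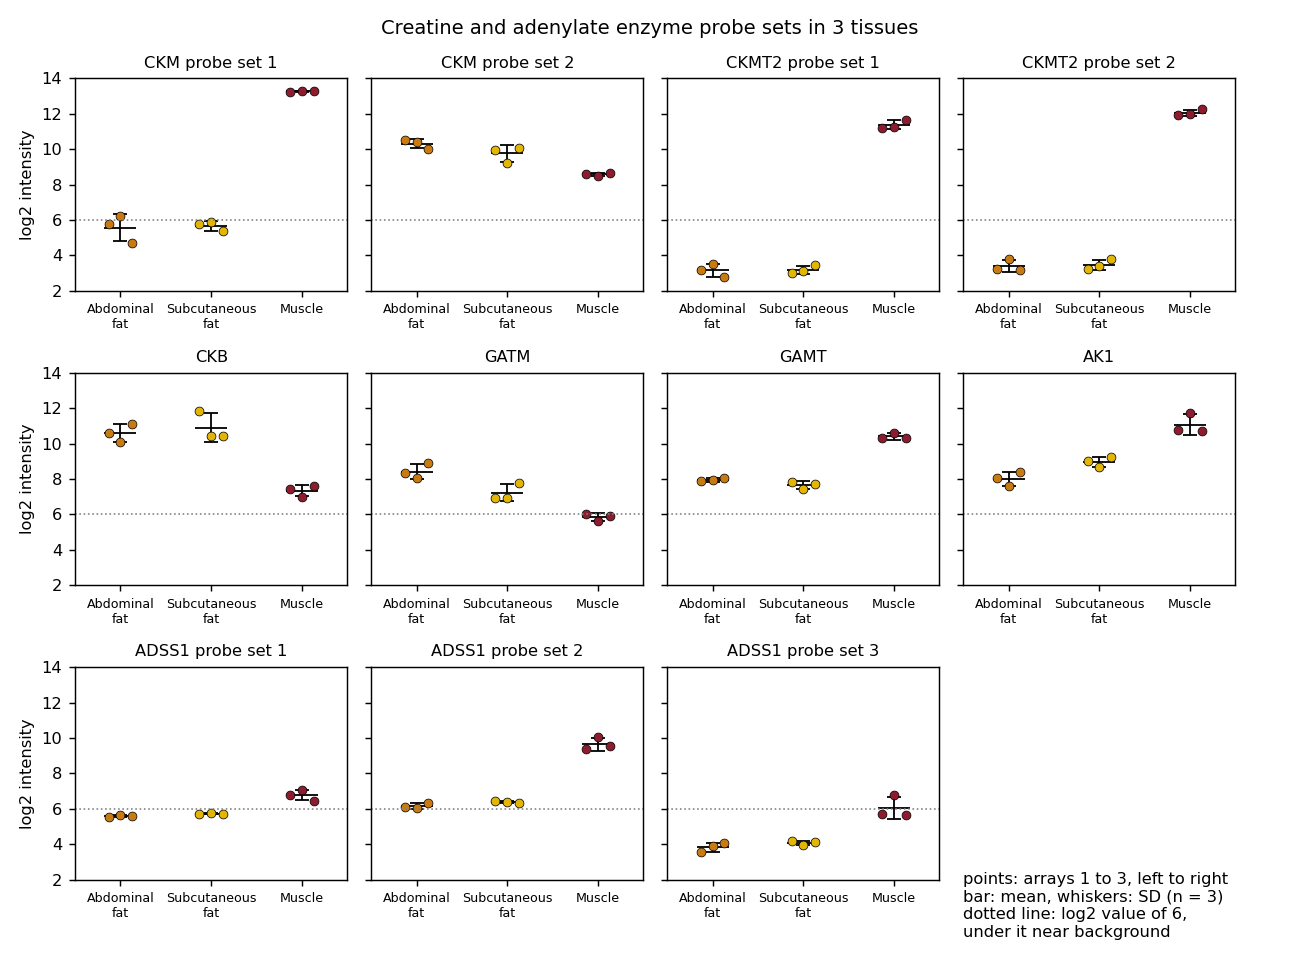
Log2 intensity of each of the 11 probe sets on every array, by tissue. Points are arrays, bars the mean and whiskers the SD of 3 arrays, and the dotted line marks 6. In all 11 panels the fat arrays lie wholly above or wholly below the muscle arrays.

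The muscle creatine kinase CKM was read by 2 probe sets that went in opposite directions. The array annotation ties probe set 1 to the CKM RefSeq messenger RNA and probe set 2 to a different GenBank accession. Probe set 1 read 5.76, 6.24 and 4.71 in abdominal fat, 5.76, 5.90 and 5.37 in subcutaneous fat, against 13.23, 13.29 and 13.29 in muscle. All 6 fat arrays were far under the muscle arrays, and both depot means were near background. The difference was −7.65 ± 0.28 (SE; adjusted p = 4.23e-08), the 23rd lowest of 24016 probe sets. Because the fat means were near background, its size may be understated. In muscle, 99.9% of probe sets read lower than this one.

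Among the abdominal arrays, CKM probe set 1 was highest on replicate 2 and lowest on replicate 3. The summed intensity of muscle fibre markers was also highest on replicate 2, at 1575, and lowest on replicate 3, at 300. The part of muscle fibre RNA in these fat values was not tested.

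CKM probe set 2 read 10.54, 10.42 and 10.01 in abdominal fat, 9.97, 9.22 and 10.09 in subcutaneous fat, against 8.61, 8.49 and 8.65 in muscle. Every fat array was above every muscle array, and none of the 3 tissues was near background. The difference was 1.46 ± 0.20 (adjusted p = 0.000174), or 2.75-fold higher in fat. Per array, probe set 1 minus probe set 2 averaged −4.42 ± 0.68 in fat (SD, n = 6) and 4.69 ± 0.10 in muscle (SD, n = 3). These differences did not overlap between the tissues, and their gap was −9.10. That the CKM probe sets may disagree was known when the set was chosen, so the gap is given as a description. The direction read for CKM depends on the probe set, and which of them reads CKM messenger RNA was not tested.

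CKMT2, the mitochondrial creatine kinase of striated muscle, was near background in fat by both probe sets and bright in muscle. Probe set 1 read 3.20, 3.48 and 2.75 in abdominal fat, 2.99, 3.14 and 3.43 in subcutaneous fat, against 11.20, 11.24 and 11.66 in muscle. The difference was −8.20 ± 0.18 (adjusted p = 2.16e-09), the 10th lowest on the array. Probe set 2 read 3.20, 3.77 and 3.20 in abdominal fat, 3.23, 3.41 and 3.77 in subcutaneous fat, against 11.95, 11.99 and 12.26 in muscle. Its difference of −8.64 ± 0.17 (adjusted p = 1.69e-09) was the 4th lowest. The fat values of both were among the dimmest on the arrays, with 13.1% to 17.3% of probe sets reading lower, so the size of both differences may be understated.

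The brain-type creatine kinase CKB was the member with the greatest difference upward. It read 10.59, 10.09 and 11.08 in abdominal fat, 11.83, 10.42 and 10.44 in subcutaneous fat, against 7.43, 6.98 and 7.58 in muscle. Every fat array exceeded every muscle array, by 3.41 ± 0.33 on average (adjusted p = 1.89e-05), or 10.6-fold, the 81st highest difference of 24016. Its spread was wide in subcutaneous fat, where replicate 1 stood above the other two. The interval of the difference ran 2.67 to 4.15.

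The enzymes of creatine synthesis went in opposite directions. GATM, which catalyses the first step, read 8.31, 8.06 and 8.88 in abdominal fat, 6.94, 6.93 and 7.80 in subcutaneous fat, against 6.03, 5.60 and 5.90 in muscle. All fat arrays were above all muscle arrays, and the muscle mean of 5.84 was near background. The difference was 1.98 ± 0.24 (adjusted p = 7.47e-05), and its size may be understated because of the dim muscle values.

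GAMT, which catalyses the second step, read 7.88, 7.92 and 8.07 in abdominal fat, 7.83, 7.41 and 7.73 in subcutaneous fat, against 10.30, 10.63 and 10.30 in muscle. It was clear of background in all 3 tissues and lower on every fat array. The difference was −2.60 ± 0.13 (adjusted p = 3.56e-07), or 6.07-fold lower in fat.

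Adenylate kinase AK1 read 8.05, 7.58 and 8.40 in abdominal fat, 8.99, 8.66 and 9.23 in subcutaneous fat, against 10.78, 11.75 and 10.70 in muscle. The tissues did not overlap, with abdominal fat lowest and muscle highest. The difference was −2.59 ± 0.26 (adjusted p = 2.50e-05), or 6.02-fold lower in fat.

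ADSS1, the muscle adenylosuccinate synthetase, was lower in fat by all 3 probe sets. Probe set 2, the only 1 whose group means were all over 6, read 6.09, 6.04 and 6.35 in abdominal fat, 6.45, 6.38 and 6.35 in subcutaneous fat, against 9.36, 10.07 and 9.54 in muscle. Its difference was −3.38 ± 0.16 (adjusted p = 2.02e-07), or 10.4-fold lower in fat. Probe set 1 averaged 5.58 ± 0.05 in abdominal fat, 5.72 ± 0.03 in subcutaneous fat, against 6.77 ± 0.29 in muscle (SD, n = 3 each). Its difference was −1.12 ± 0.13 (adjusted p = 5.80e-05). Probe set 3 averaged 3.83 ± 0.25 in abdominal fat, 4.07 ± 0.13 in subcutaneous fat, against 6.04 ± 0.64 in muscle, a difference of −2.09 ± 0.24 (adjusted p = 5.89e-05). No fat array overlapped a muscle array by any of the 3. Both fat means of probe sets 1 and 3 were near background, so the size of their differences may be understated.

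**Figure D2:**
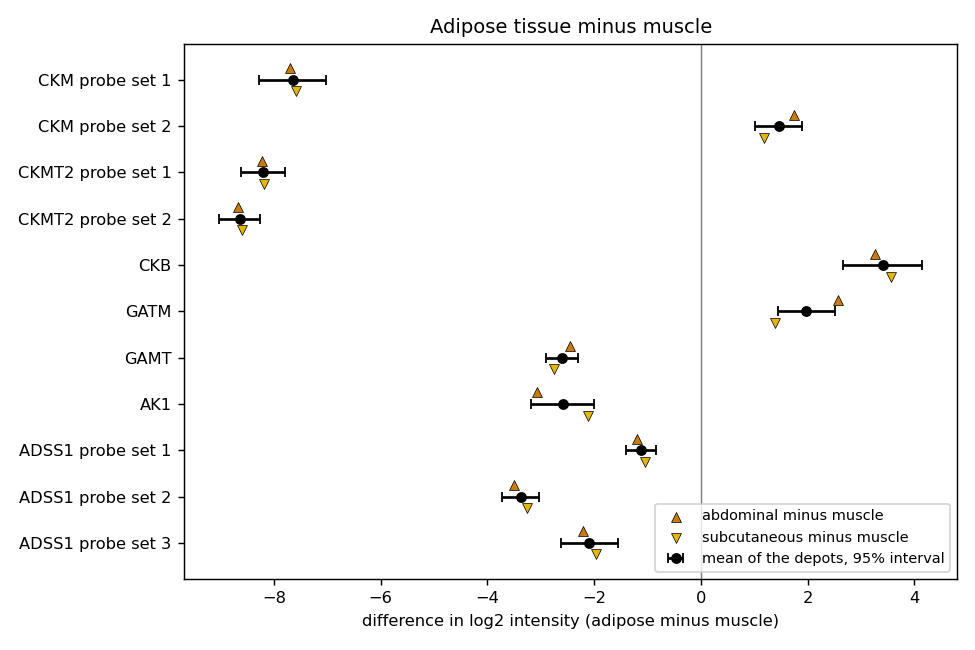
Difference in log2 intensity between adipose tissue and muscle for the 11 probe sets, with 95% intervals. CKB, GATM and the second CKM probe set lie above 0, and the other 8 lie below, down to −8.64 for the second CKMT2 probe set.

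Where a gene had several probe sets, their tissue differences were compared with each other. The CKMT2 pair pointed the same way and differed by 0.43, while the ADSS1 pairs differed by 2.26 (1 against 2), 0.97 (1 against 3) and −1.29 (2 against 3). In each of the 5 pairs, that of CKM included, at least 1 probe set was near background in fat. The gaps are therefore not exact amounts, and the part of the dim values in them was not tested. All 5 pairs had p = 0.0238 in an exact two-sided permutation test, before and after adjustment, the smallest that 6 arrays against 3 can give. For CKM this p is no independent support, since its disagreement was known beforehand. The test also treats the 6 fat arrays as separate samples. Abdominal and subcutaneous arrays with the same leading number in the sample title correlated at 0.330 and 0.362. Whether they share an animal is not known. Of the 5 pairs, the direction differed only in that of CKM. With any of the 3 muscle arrays left out no pair passed, since 6 arrays against 2 cannot give a p under 0.0714.

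**Figure D3:**
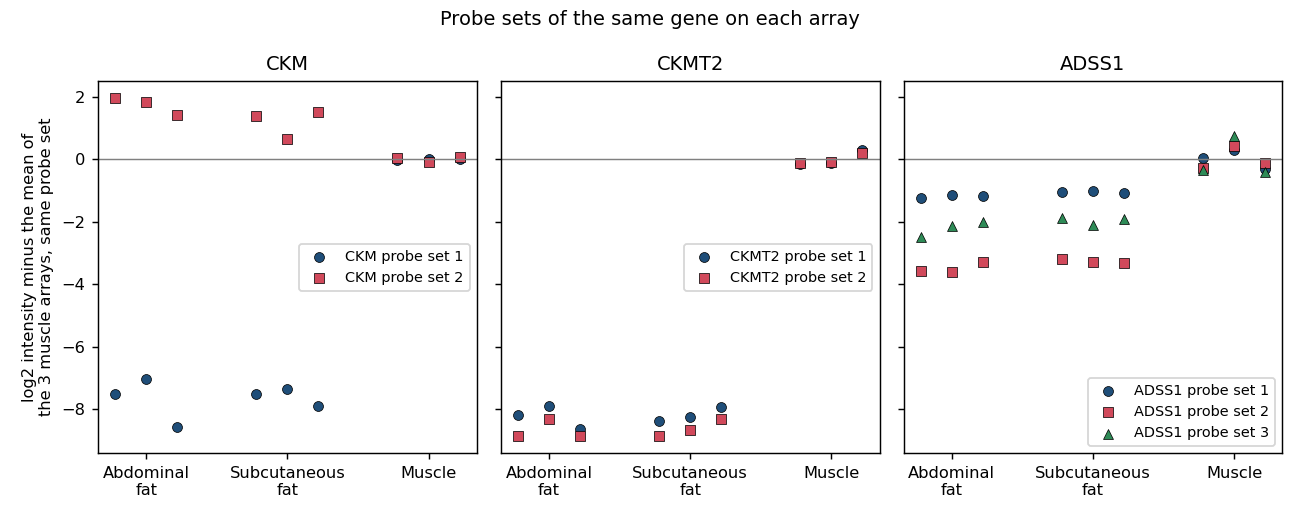
Log2 intensity of each probe set of CKM, CKMT2 and ADSS1 on every array, minus that probe set's mean over the 3 muscle arrays. The CKM probe sets part to opposite sides of 0 in fat, whereas those of CKMT2 and of ADSS1 all lie below it.

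Within muscle, no array was highest or lowest for all members. Replicate 3 was highest for 5 probe sets, CKM probe sets 1 and 2, both of CKMT2 and that of CKB. For CKM probe set 1 this was only 13.2854 against 13.2851 on replicate 2. Replicate 1 was lowest for 5, CKM probe set 1, both of CKMT2, GAMT and ADSS1 probe set 2. Replicate 2 was highest for 5 probe sets, those of GAMT, AK1 and ADSS1, and lowest for CKM probe set 2, CKB and GATM, the 3 that were higher in fat. The summed adipocyte markers in muscle were 7163, 3170 and 6318 on replicates 1, 2 and 3, lowest on replicate 2. Fibroblast, macrophage and nerve sums were also lowest on replicate 2, at 7665, 831 and 2051, so the low was not particular to adipocyte markers. Muscle fibre, endothelial, and smooth muscle and pericyte sums were highest there, at 66133, 981 and 3591. Both CKMT2 probe sets were highest on replicate 3, and CKM probe set 1 was level on replicates 2 and 3. The part of fat RNA in these muscle values was not tested.

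Each depot was also set against muscle by itself, with the muscle arrays shared between the 2 comparisons. All 11 probe sets passed the test in both, in the directions given above. In abdominal fat 8 were lower and 3 higher, where 23.1% of all probe sets were lower and 23.5% higher. In subcutaneous fat the counts were also 8 and 3, where 22.4% were lower and 24.6% higher. The difference for CKB was 3.25 in abdominal and 3.57 in subcutaneous fat, and that for AK1 was −3.07 and −2.11. GATM differed by 2.58 in abdominal and 1.38 in subcutaneous fat, and CKM probe set 2 by 1.74 and 1.18. CKM probe set 1 differed by −7.70 and −7.59, and GAMT by −2.45 and −2.75.

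Between abdominal and subcutaneous fat, no member passed the test after adjustment, against 1.31% of all probe sets. At an unadjusted p under 0.05 there were 3 of 11, against 14.5% of all probe sets. The depots' arrays lay fully apart for 4 of 11, against 23.6%. GATM had the greatest difference, 1.19 higher in abdominal fat (95% interval 0.58 to 1.80; adjusted p = 0.0697), and its arrays did not overlap. With array weights GATM passed (1.14, adjusted p = 0.0395). AK1 was −0.95 in abdominal relative to subcutaneous fat (−1.63 to −0.27; adjusted p = 0.174), also without overlap. CKM probe set 2 differed by 0.56 (0.05 to 1.07; adjusted p = 0.291), with overlapping arrays.

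GAMT and ADSS1 probe set 1 were the other two without overlap, with differences of 0.30 (−0.04 to 0.64) and −0.14 (−0.47 to 0.19). CKB differed by −0.31 (−1.17 to 0.54), an interval wide enough to hold a sizeable difference either way. CKM probe set 1 differed by −0.10 (−0.83 to 0.62), and the CKMT2 probe sets by −0.04 (−0.51 to 0.43) and −0.08 (−0.52 to 0.37). ADSS1 probe sets 2 and 3 differed by −0.23 (−0.64 to 0.17) and −0.24 (−0.86 to 0.38). A p that misses the threshold does not show that the depots are alike for these genes.

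**Figure D4:**
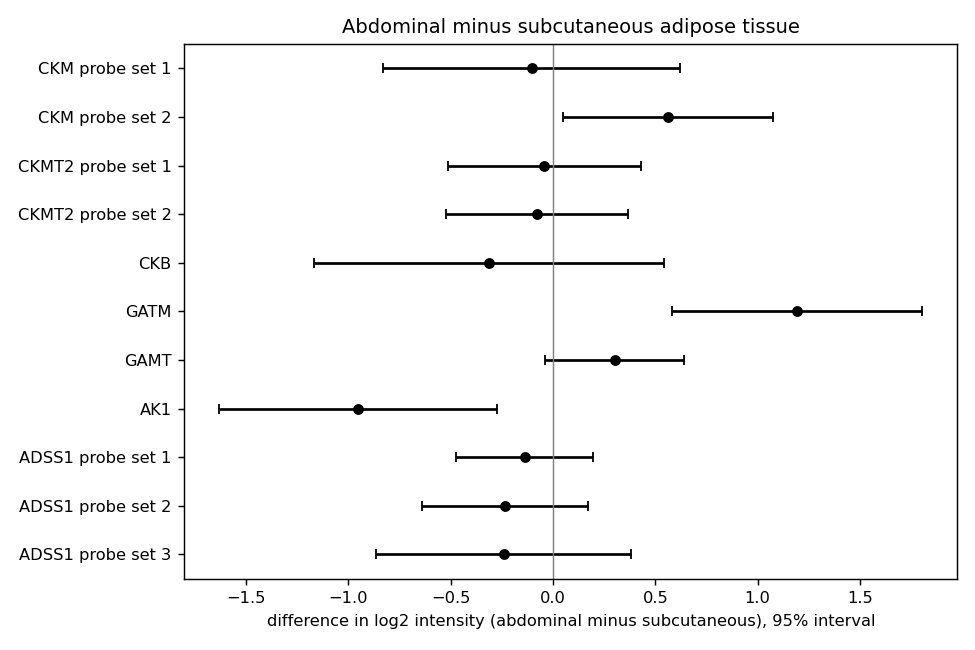
Difference in log2 intensity between abdominal and subcutaneous fat for the 11 probe sets, with 95% intervals that are not adjusted for the number of probe sets. The intervals of GATM, AK1 and the second CKM probe set leave out 0, and none of the 3 passed the test after adjustment.

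Other genes of the same pathways were described by the brightest probe set of each. Of 2 measured creatine handling genes, the creatine transporter SLC6A8 was lower in fat (−0.76, adjusted p = 0.011, and −1.14 by its other probe set), and the ubiquitous mitochondrial creatine kinase CKMT1A, with means near background in all 3 tissues, differed by −0.19 (adjusted p = 0.467). Of 9 adenylate and nucleoside phosphate kinases, 2 were higher in fat, 2 lower and 5 did not pass, with 1 lower when muscle replicate 1 was left out. Those named here were NME4 (1.52) and CMPK1 (1.08), both higher, and NME6 (−1.25), which was lower. NME4 is a mitochondrial nucleoside diphosphate kinase, and CMPK1 phosphorylates UMP and CMP.

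The genes listed under purine nucleotide cycle and salvage were split, with 5 of 12 higher, 5 lower and 2 that did not pass. NT5C3A and NT5C2, nucleotidases that remove phosphate from nucleoside monophosphates, were lower (−3.19 and −1.74), and PNP, which splits purine nucleosides, was higher by 1.76. ADSS2, the adenylosuccinate synthetase of non-muscle tissues, and AMPD2, an AMP deaminase, were named after their values were seen. Both were higher in fat, ADSS2 by 1.07 (adjusted p = 0.014), opposite in direction to ADSS1, and AMPD2 by 1.65. ADSS2 was dim throughout, with means of 6.21 in abdominal fat, 6.27 in subcutaneous fat and 5.17, near background, in muscle. Without muscle replicate 2, ADSS2 no longer passed (0.81, adjusted p = 0.0718).

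The adenine nucleotide carriers of the inner mitochondrial membrane went in opposite directions, with SLC25A4 lower (−2.61) and SLC25A6 and SLC25A5 higher by 1.94 and 1.89. Other probe sets of SLC25A6 differed by 0.25 to 1.63, and that of SLC25A5 by 2.48. Of the 7 transport genes 2 were higher, 4 lower and 1 did not pass. Of 6 de novo purine synthesis genes, IMPDH1 was higher (0.64, while its other probe set differed by −0.34), GMPS and IMPDH2 were lower (−0.67 and −0.54), and 3 did not pass. Without muscle replicate 1, 2 of them were higher. Of 4 measured subunits of AMP-activated protein kinase, the cell's sensor of AMP, PRKAG1 was lower (−0.51) and 3 did not pass. The count of lower subunits was 2 with arrays centred on their median, with quantile normalization and without muscle replicate 1, and 1 subunit was higher with array weights and without subcutaneous replicate 2. List medians ran −0.47 for creatine handling to 0.03 for the adenylate and nucleoside phosphate kinases, beside −0.06 for all probe sets. None of the 40 genes passed limma's test between the depots, and 7 had an unadjusted p under 0.05, beside 1.31% and 14.5% of all probe sets.

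**Figure D5:**
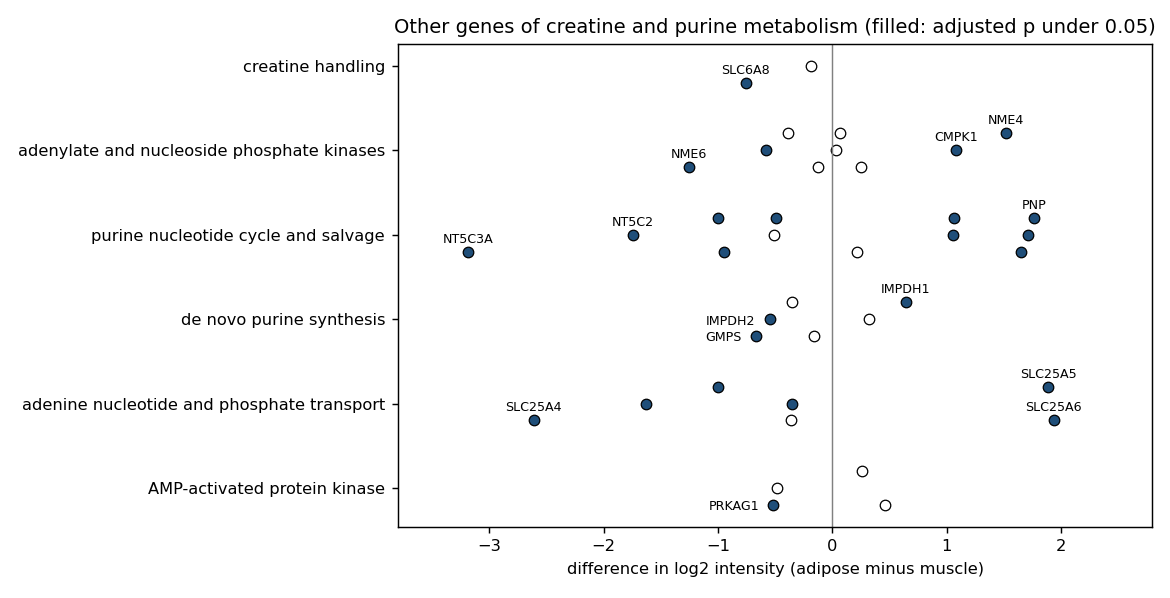
Difference in log2 intensity between adipose tissue and muscle for the 40 measured genes of the pathway lists, 1 point per gene by its brightest probe set, filled where the adjusted p was under 0.05. Points lie on both sides of 0 in most lists, between −3.19 for NT5C3A and 1.94 for SLC25A6.

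The genes with the most similar profile over the 9 arrays were found by root mean square distance between log2 profiles, each centred on its own mean. For CKM probe set 1 they were MYL1 (0.183), NEB (0.221) and PPP1R27 (0.273). MYL1 and NEB encode parts of the muscle sarcomere. For CKMT2 probe set 2 they were ANKRD1 (0.369), PYGM (0.395), the muscle glycogen phosphorylase, and MYOZ2 (0.440). For CKM probe set 2 they were EMCN (0.213), a surface protein of endothelial cells, FGF12 (0.215) and MAL (0.216). By this distance the CKM probe sets could not share near neighbours, since their differences between fat and muscle were −7.65 and 1.46. The summed endothelial markers were 5350 to 5930 in abdominal fat, 4222 to 5078 in subcutaneous fat, against 908 to 981 in muscle. This was the order of the means of probe set 2, whose depots overlapped. Adipocyte markers had it too, at 35365 to 37915, 33823 to 34975 and 3170 to 7163, so it was not particular to endothelium. Fibroblast sums did not, being mostly higher in subcutaneous fat. The part of any cell type in probe set 2 was not tested.

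For CKB the nearest profiles were EFNA5 (0.321), ELOVL5 (0.354) and FASN (0.364). ELOVL5 elongates fatty acids and FASN makes them. For GATM they were MYC (0.273), C16H1orf115 (0.294) and GATA6 (0.296), where MYC and GATA6 are transcription factors. These distances are descriptions over 9 arrays that share 3 tissues.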

How the data were processed

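Messenger RNA of 3 tissues, 3 arrays each, was measured on a 1-colour Affymetrix bovine array with biotin-labelled cRNA, per the labels. A lipid-tissue RNA kit is named there for adipose samples. The deposited table holds linear intensities of 3.06 to 17450.5, and RMA is named in the submitters' processing notes, with a version not given in the sources used here. Each intensity was put on the log2 scale, with no further normalization and no filter. Of 24128 probe sets, 112 controls were left out. The array annotation and a RefSeq gene table gave 13292 probe sets 1 symbol, 86 several and 10638 none.

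All 9 arrays entered a means model of the tissues in limma 3.58.1 and R 4.3.3 (eBayes; 6 residual and 3.75 prior degrees of freedom), two-sided, with Benjamini-Hochberg adjustment over 24016 probe sets and a threshold of 0.05. Intervals are 95%. Probe sets of the same gene were compared by an exact permutation test (scipy 1.17.1). The precision is limited by the number of arrays. The fit was tested on simulated data. Alternatives covered scaling, dim probe sets, array weights, the title number as a block, the threshold and each array left out.

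The named genes were all members, the 3 passing genes of each pathway list with the greatest difference, any passing gene between depots, and the 3 nearest profiles of chosen members. Members, lists and rules were chosen with earlier results of these data known.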

Additional observations from a re-analysis of the deposited data

How the results depend on the processing

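All 33 differences between a member probe set and muscle kept their direction and stayed past the threshold under each alternative run, except that ADSS1 probe set 3 was dropped by the filter on dim probe sets and had no value there. Counted by the brightest probe set of each gene, 7 of 7 genes passed in each of the 3 comparisons with muscle (3 higher, 4 lower). CKM was among the 3 higher genes because its brightest probe set was probe set 2. By probe set 1, CKM was lower in fat (−7.65), so its place in this count depends on the probe set. Between the depots, 1 member passed with array weights, GATM at 1.14 (adjusted p = 0.0395). The count of all probe sets between the depots moved to 1034 with array weights, 118 with the replicate block and 36 at an adjusted p under 0.01, and ranged 57 (without abdominal replicate 3) to 491 (without muscle replicate 3) with 1 array left out. Small depot differences changed sign: with the replicate block to 0.26 for CKM probe set 1, 0.29 for CKMT2 probe set 1 and 0.14 for CKMT2 probe set 2. With 1 array left out they ranged −0.44 to 0.33, −0.21 to 0.15 and −0.27 to 0.074, and that of CKB −0.56 to 0.15. The causes were not tested.

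With a muscle array left out, 6 arrays against 2 cannot give a p under 0.0714, so the count of 5 passing probe set pairs ranged 0 to 5. The block used the leading number of the sample title. All same-number pairs of arrays correlated positively, at 0.043 to 0.362, with 0.330 and 0.362 between depots, where pairs of different numbers ran −0.324 to 0.091. Muscle replicate 3 correlated at 0.170 with abdominal replicate 3, of another number, and at 0.090 with subcutaneous replicate 3, of its own number. Subcutaneous replicate 3 correlated about equally with abdominal replicate 3 (0.091) and muscle replicate 3 (0.090). Whether the number marks an animal or a batch is not settled by the labels or these values. Abdominal replicate 3 was alone in its block. Centring on array medians shifted adipose minus muscle by −0.12. Values near background, the fat values of CKMT2 above all, limit the size of the differences.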
